A study of Mus musculus with 6 samples.

Results

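The genes described here are the Toll-like receptors, the cytosolic sensors and the signal carriers that lead from them to the transcription factor NF-kB, as measured in whole embryonic tracheas with and without cartilage. They were taken by gene symbol from a list of 51 genes. Of these, 45 were found under that symbol on the array, read by 66 of its 25697 probes, and 40 were above background on at least 3 of 6 arrays and were tested. The arrays compared 3 pools of tracheas labelled mutant (genotype Sox9-/-, with the gene missing in the mesenchyme and hence no cartilage rings) with 3 pools labelled control (Sox9+/+). All embryos were of the C57BL/6 background at stage E18.5. Each pool held 3 tracheas, which makes 9 embryos a group, drawn at random from the litters of 7 females. The p-values below thus measure the spread between pools of embryos. The Cre driver behind the loss of the gene is not given in the sources used here.

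Toll-like receptors sit on the cell surface or in endosomes and recognise microbial products such as lipopeptides, lipopolysaccharide and nucleic acids. Adaptors that carry a TIR domain, chiefly the Myd88 protein, pass the signal to IRAK kinases and Traf6, and from there through the kinase Tak1 (gene Map3k7) to the IkB kinase complex. That complex marks the IkB inhibitors for destruction, which frees dimers of Rel proteins to enter the nucleus. NF-kB then induces cytokines, adhesion molecules and several of its own inhibitors, so that the path is limited by feedback. In the airway both epithelial cells and resident macrophages use it.

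The target sequence of NF-kB can be read in the promoters of several of these genes, and 5 are shown so that the matches counted below can be seen: 3 genes with a match to the NF-kB consensus motif and 2 with a match to the interferon-stimulated response element (GAAA, any 2 bases, GAAA), both searched on either strand. The windows run from 250 bases before to 50 bases after the gene start in RefSeq, build GRCm38.p6, and capitals mark the matches, merged where they overlap. All 5 genes lie on the minus strand and are written 5′ to 3′ in the direction of transcription. Tlr2 (chr3:83841559-83841858), Nfkbia (chr12:55492598-55492897) and Tnfaip3 (chr10:19015361-19015660) hold the NF-kB motif, and Myd88 (chr9:119339969-119340268) and the interferon-induced gene Isg15 (chr4:156200769-156201068) hold the interferon element.
Tlr2: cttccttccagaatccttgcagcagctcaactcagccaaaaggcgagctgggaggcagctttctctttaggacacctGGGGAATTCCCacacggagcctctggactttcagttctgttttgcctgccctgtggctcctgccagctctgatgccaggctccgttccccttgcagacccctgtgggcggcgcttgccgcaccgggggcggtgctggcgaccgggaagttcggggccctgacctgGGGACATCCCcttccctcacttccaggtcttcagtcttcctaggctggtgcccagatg
Nfkbia: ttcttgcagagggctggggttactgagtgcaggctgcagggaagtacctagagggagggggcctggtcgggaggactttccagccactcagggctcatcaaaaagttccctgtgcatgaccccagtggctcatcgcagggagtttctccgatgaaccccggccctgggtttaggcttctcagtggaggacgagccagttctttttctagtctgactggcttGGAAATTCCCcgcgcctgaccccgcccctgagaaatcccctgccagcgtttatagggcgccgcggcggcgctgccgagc
Tnfaip3: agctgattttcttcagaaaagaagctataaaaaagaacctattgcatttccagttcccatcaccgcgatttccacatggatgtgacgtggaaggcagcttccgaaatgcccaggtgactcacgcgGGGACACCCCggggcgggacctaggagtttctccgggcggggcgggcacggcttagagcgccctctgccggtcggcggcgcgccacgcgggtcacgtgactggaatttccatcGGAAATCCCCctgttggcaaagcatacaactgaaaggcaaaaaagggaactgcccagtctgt
Myd88: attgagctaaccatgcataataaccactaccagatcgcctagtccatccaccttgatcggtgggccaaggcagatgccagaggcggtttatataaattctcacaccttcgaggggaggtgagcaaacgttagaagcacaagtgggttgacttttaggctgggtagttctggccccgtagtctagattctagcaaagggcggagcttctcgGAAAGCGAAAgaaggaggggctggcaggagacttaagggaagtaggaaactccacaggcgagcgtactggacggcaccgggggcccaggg
Isg15: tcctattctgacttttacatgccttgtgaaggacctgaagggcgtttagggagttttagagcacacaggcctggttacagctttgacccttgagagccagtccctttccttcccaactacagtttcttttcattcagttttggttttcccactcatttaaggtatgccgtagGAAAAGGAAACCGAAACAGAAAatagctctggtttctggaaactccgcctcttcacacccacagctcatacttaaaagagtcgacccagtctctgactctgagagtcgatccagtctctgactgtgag

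Raw median intensity was 205 to 211 on the arrays labelled mutant and 183 to 198 on those labelled control, and 14468 to 14726 probes were detected per array, each read from a median of 38 or 39 beads. The 6 arrays shared 1 slide on which the controls took the first places, and an effect of place cannot be told apart from that of group. The probe for Sox9 itself, the cartilage transcription factor that was deleted, had log2 intensities of 5.63, 5.28 and 5.42 in the pools labelled mutant and of 4.69, 4.52 and 4.52 in those labelled control, with no overlap. It was above background on all 3 mutant arrays and on 0 control arrays, and with at least 1.12-fold more signal in those mutant pools it passed the test (limma adjusted p = 0.0164). The probe passed the filter on dim probes through the mutant arrays alone. Its raw intensity there was 185 to 202, near background and below the median of each of those arrays. The direction goes against the label. The part of the gene that the probe reads is not given in the sources used here, so the probe cannot check the deletion. The cartilage collagen gene Col2a1, in contrast, stood at 4.94, 5.41 and 5.67 in the pools labelled mutant, against 11.72, 11.68 and 11.70 in the controls. All directions below rest on the labels. Epithelial markers were present as the tissue requires, with 6 of the 7 listed genes found on the array and all 6 tested.

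None of the 40 tested genes of the receptor and NF-kB path passed the test over all genes (limma, adjusted p below 0.05): 0 were higher and 0 were lower in the pools labelled mutant. Over the same fit 599 of 10831 genes passed, which is 5.53% of those tested, with 2.16% higher and 3.37% lower. The lowest adjusted p among the 40 was 0.0626 (limma), for Irak3. At an unadjusted p below 0.05 there were 10 members (25.0%), 6 higher and 4 lower, against 2719 of all genes (25.1%). In 12 members (30.0%) the values of the mutant and control pools did not overlap, 6 higher and 6 lower, where the background share was 31.4%. The shares by unadjusted p and by overlap were thus close to those of the array as a whole. At the adjusted threshold, 0 of 40 members stood beside 5.53% of all genes.

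The sizes of change were also close to those of the array. The median change, mutant minus control, was 0.03 on the log2 scale over the 40 members and 0.01 over all genes tested, and the changes of the members ran from -0.60 to 0.49. The median size of change, regardless of sign, was 0.15 over the members and 0.17 over all genes tested. A test that misses its threshold does not show equality, but the intervals bound what could have been missed. In 39 of 40 members the 95% interval of the change lay within a 2-fold difference in either direction, as it did in 89.5% of all genes tested, and Ticam2 was the exception. The standard error of a change had a median of 0.12 over the members and 0.13 over all genes. The smallest change among the 599 genes that passed was 0.39 in size, and their median size was 0.77. The authors' deposited table listed these 40 genes with 53 probes, of which 0 had an adjusted p below 0.05, the lowest being 0.0739 for Irak3.

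**Figure D1:**
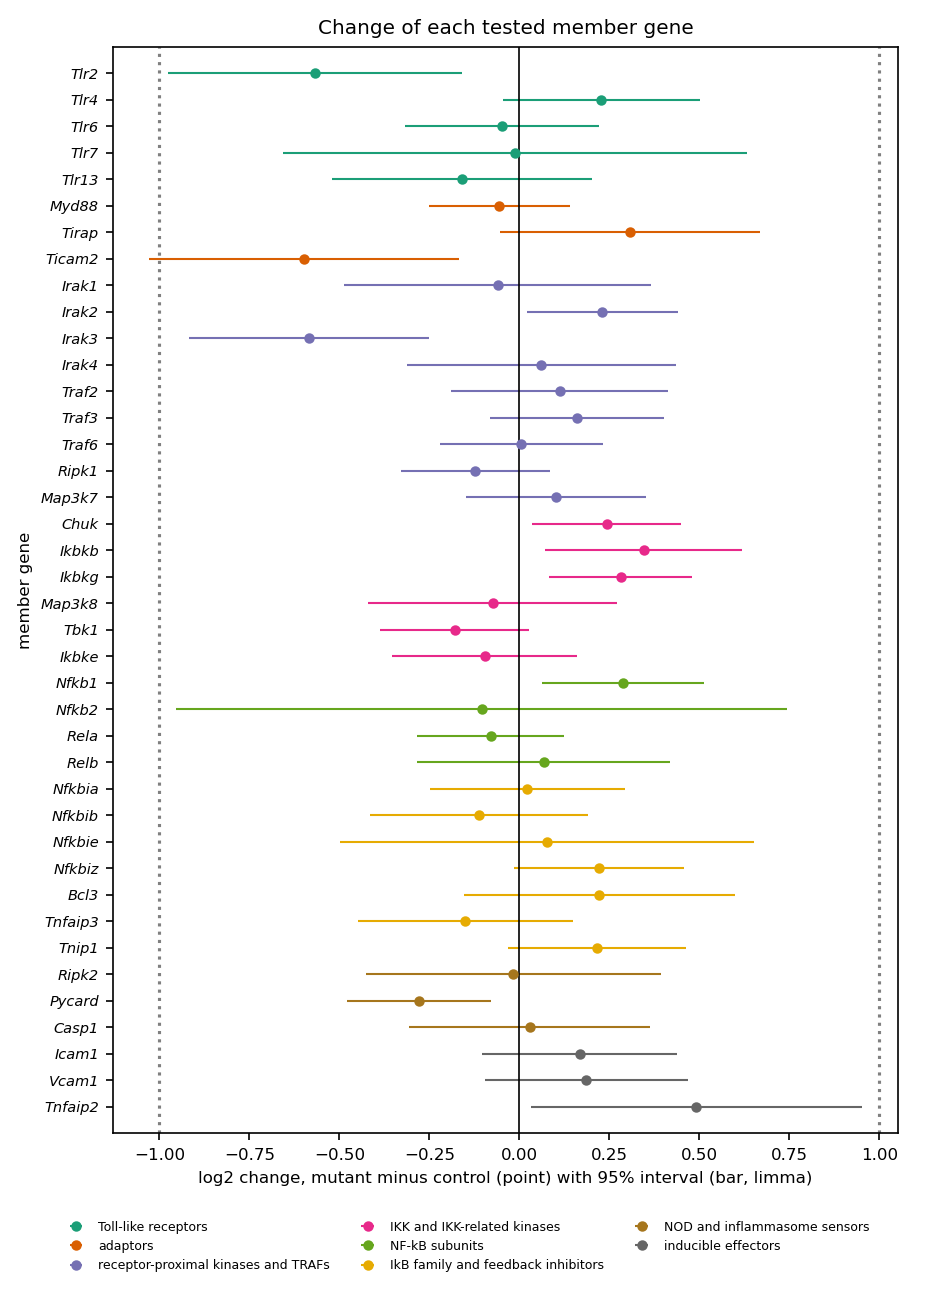
Change of each of the 40 tested genes, mutant minus control, in log2 units (points), with the 95% interval from limma (bars), coloured by role, with dotted lines at a 2-fold difference. The points lie between -0.60 and 0.49, and 30 of the 40 intervals include 0.

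Among the receptors, 5 of the 10 listed Toll-like receptors could be tested and 0 passed. Tlr2, which recognises bacterial lipopeptides, had log2 intensities of 9.27, 8.81 and 8.59 in the pools labelled mutant, against 9.46, 9.42 and 9.49 in the control pools. All values of the mutant pools lay below those of the controls, and the mutant pools were spread more widely. The change was -0.57 (SE 0.17, 95% interval -0.98 to -0.16, limma adjusted p = 0.104). It passed when mutant pool 1 was left out (change -0.76, limma adjusted p = 0.0376), and over all alternatives the adjusted p ran from 0.0376 to 0.252. Mutant pool 3, where Tlr2 was lowest, was the pool with the most signal from neutrophil markers, described below.

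Tlr4, the receptor for lipopolysaccharide, had 7.75, 7.91 and 7.82 in the pools labelled mutant, against 7.48, 7.81 and 7.52 in the controls (log2 intensity), and the groups overlapped through control pool 2. The change was 0.23 (SE 0.12, limma adjusted p = 0.273). Tlr13, a receptor for bacterial ribosomal RNA in mice, had 5.87, 6.03 and 5.67 in the mutant pools and 5.81, 6.27 and 5.98 in the control pools, with overlapping groups (change -0.16, SE 0.15). Its second probe, above background on 2 arrays and thus not kept, gave 0.25. Tlr6, the partner of Tlr2 in sensing diacylated lipopeptides, had a change of -0.05 (SE 0.11). Tlr7, a sensor of single-stranded RNA, ranged from 5.89 to 6.37 in the mutant pools and from 5.65 to 6.72 in the control pools, a wider spread among controls than the difference of -0.01 between the groups. Tlr1, Tlr3 and Tlr8 were above background on no array, so that no change could be read for them, and Tlr5 and Tlr9 matched no probe and were not analysed here.

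Of the adaptors, the central one was level between the groups. Myd88, used by most Toll-like receptors and by the interleukin-1 receptor, had log2 intensities of 11.60, 11.63 and 11.52 in the pools labelled mutant, against 11.64, 11.68 and 11.60 in the controls. With an interval of -0.25 to 0.14 around a change of -0.06 (SE 0.08, limma adjusted p = 0.719), it was among the most closely measured members. Tirap, which bridges Myd88 to Tlr2 and Tlr4, had 8.83, 9.09 and 8.95 in the mutant pools and 8.94, 8.42 and 8.58 in the control pools, and the groups overlapped through control pool 1 (change 0.31, SE 0.15, limma adjusted p = 0.261). The other two probes of Tirap gave 0.22 and 0.21.

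Ticam2, the adaptor that links Tlr4 to the interferon-inducing branch, was at the edge of detection. It read 5.09, 5.22 and 4.65 in the pools labelled mutant, where it was above background on no array, and 5.75, 5.68 and 5.33 in the control pools, where it was above background on all 3 (log2 intensity). The groups did not overlap, and the signal was at least 1.26-fold lower in the mutant pools, but the test was not passed (limma adjusted p = 0.104). Without background correction the change was -0.16. The gene passed the filter on dim probes through the control arrays alone.

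The kinases next to the receptors held the gene nearest the threshold. Irak3 encodes a pseudokinase that restrains the other IRAK proteins and is best known from macrophages. It had log2 intensities of 7.33, 7.52 and 7.73 in the pools labelled mutant, against 7.93, 8.29 and 8.10 in the control pools, with no overlap. The change was -0.58 (SE 0.14, 95% interval -0.92 to -0.25, limma adjusted p = 0.0626). It passed without background correction, where its size was smaller (change -0.36, limma adjusted p = 0.0399), and it passed in 0 of the 6 fits that left out a pool, with adjusted p up to 0.171. Over all alternatives the adjusted p ran from 0.0388 to 0.171. The summed intensity of 11 tested macrophage markers was 7795 to 9274 in the mutant pools and 7296 to 8651 in the control pools. Of these markers 1, Aif1, passed as higher, and 4 had a change above 0 and 7 below 0 (range -1.10 to 0.58). In 4 of the 11 (36.4%) the groups did not overlap, near the share of 31.4% over all genes tested. One of these was Mrc1, the mannose receptor, at 10.96, 10.85 and 11.02 in the mutant pools, against 11.20, 11.36 and 11.15 in the controls (change -0.29, SE 0.10, limma adjusted p = 0.129). Another was Cd163, a scavenger receptor, at 5.07, 5.20 and 5.21 in the mutant pools, against 6.03, 7.06 and 5.69 in the controls. It was above background on the 3 control arrays only and passed the filter on dim probes through them alone. Mrc1 and Cd163 were lower, as Irak3 was, while Aif1, the only marker that passed, went the other way. Ptprc was above background on 1 array and Itgam on 0. The part of these cells in the value for Irak3 was not tested. In whole tissue, fewer cells of a type and less RNA per cell cannot be told apart.

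Irak2, an IRAK family member that sustains the signal, had 8.64, 8.75 and 8.71 in the pools labelled mutant, against 8.38, 8.52 and 8.51 in the controls, with no overlap (log2 change 0.23, SE 0.09, limma adjusted p = 0.167). Its second probe gave 0.33. Traf3, which steers signals toward interferon production, had 10.90, 10.85 and 10.96 in the mutant pools and 10.86, 10.59 and 10.79 in the controls (change 0.16, SE 0.10), with overlap. Irak1, Irak4, Traf2, Traf6, Ripk1 and Map3k7 had changes between -0.12 and 0.11. For Irak4 and Traf6 the kept probes differed in sign, and those of Irak4 gave 0.06, 0.32 and -0.29, so that the direction of that gene is not settled.

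None of the 6 tested IkB kinase and related genes passed. The values of the 3 subunits of the IkB kinase complex did not overlap between the groups, with the mutant pools above the controls. Over all genes tested, 31.4% did not overlap in either direction. Ikbkg, the regulatory subunit, had log2 intensities of 9.96, 10.01 and 10.08 in the mutant pools, against 9.70, 9.78 and 9.73 in the controls (change 0.28, SE 0.08, limma adjusted p = 0.0997). Its other probe above background gave 0.03, so the difference rests on 1 of 2 probes. Ikbkb, the catalytic subunit of the canonical path, had 8.55, 8.61 and 8.43 in the mutant pools and 8.36, 8.16 and 8.03 in the controls (change 0.34, SE 0.11, limma adjusted p = 0.127). Chuk, the alpha subunit, had 9.85, 9.90 and 10.01 in the mutant pools and 9.73, 9.63 and 9.68 in the controls (change 0.24, SE 0.09, limma adjusted p = 0.149). In Ikbkb the lowest mutant pool and the highest control pool lay close together.

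The IKK-related kinases serve the interferon branch. Tbk1 had 10.83, 10.67 and 10.82 in the mutant pools, against 10.97, 10.92 and 10.96 in the controls, with no overlap (log2 change -0.18, SE 0.09, limma adjusted p = 0.254). Ikbke had a change of -0.10 (SE 0.11) with overlap, and of -0.0012 with median scaling. Map3k8, a kinase that carries Toll-like receptor signals to the ERK path in macrophages, had a change of -0.07 (SE 0.15).

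**Figure D2:**
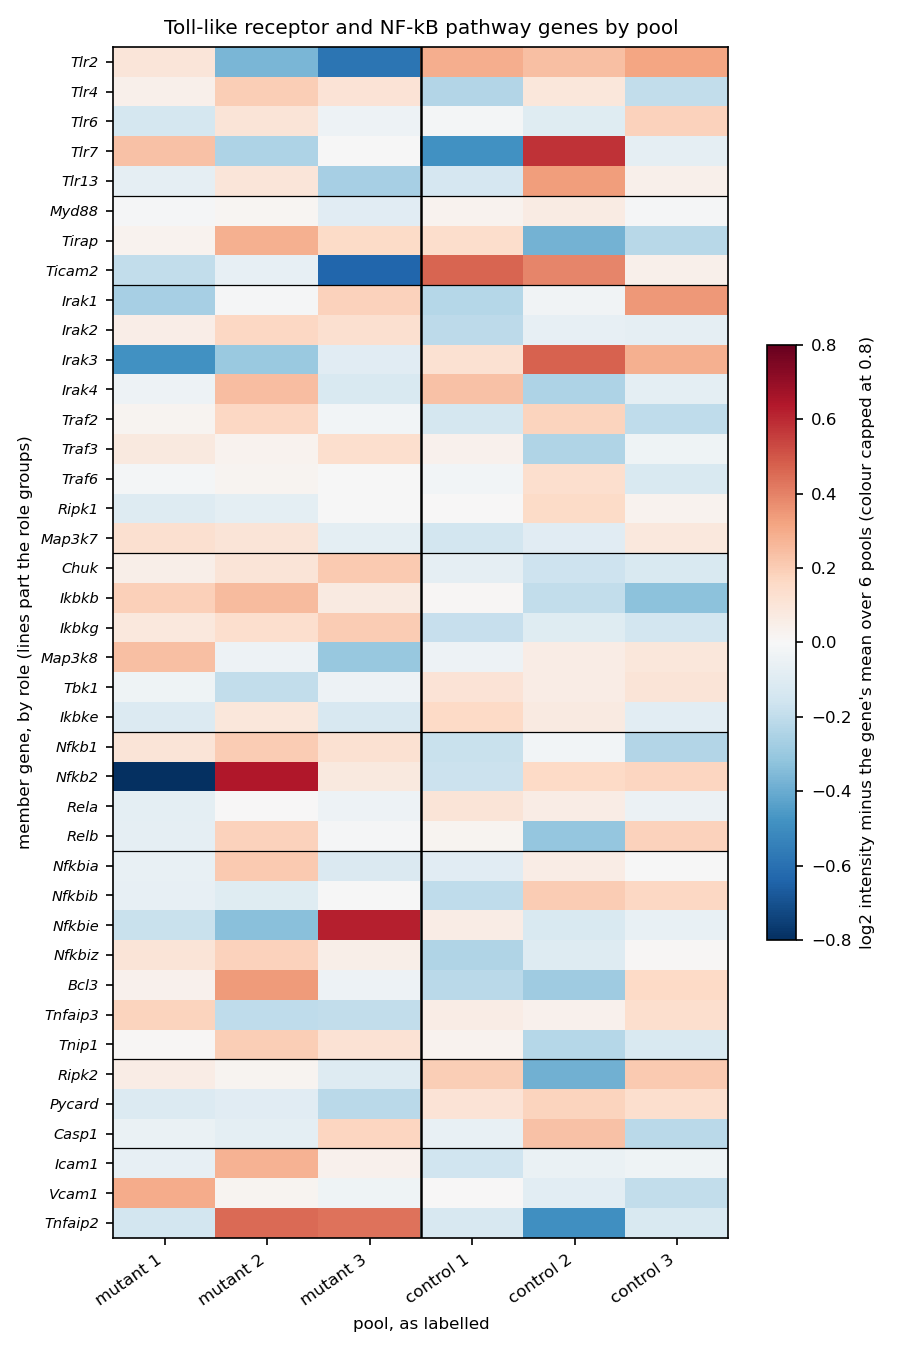
Log2 intensity of the 40 tested genes in each pool as the difference from the gene's own mean over 6 pools, by role, with the pools labelled mutant left of the controls. Irak3 and Tlr2 read below their mean in mutant pools 2 and 3 and above it in the 3 controls, Ikbkg and Chuk read below their mean in the 3 controls and above it in the 3 mutant pools, and most rows show no split between the groups.

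Of the Rel family, 4 of 5 members were tested. Nfkb1, which encodes the precursor of the p50 subunit, had log2 intensities of 10.78, 10.88 and 10.80 in the pools labelled mutant, against 10.50, 10.66 and 10.44 in the control pools, with no overlap. The change was 0.29 (SE 0.09, limma adjusted p = 0.123). Rela, the main activating subunit, had 11.11, 11.19 and 11.15 in the mutant pools, against 11.29, 11.25 and 11.14 in the controls, and the groups overlapped (change -0.08, SE 0.09). Relb, of the non-canonical path, had 6.88, 7.13 and 6.94 in the mutant pools and 6.97, 6.64 and 7.13 in the controls (change 0.07, SE 0.15), and its sign turned without mutant pool 2 or control pool 2. Nfkb2 was above background on 2 of 3 mutant arrays and ranged from 4.92 to 6.44 there, against 5.62 to 5.97 in the controls, so its interval of -0.95 to 0.74 is the widest of the members. Rel, the subunit of lymphoid and myeloid cells, was above background on no array.

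The inhibitors that NF-kB itself induces and the related IkB proteins held 7 tested genes, of which 0 passed and 1, Nfkbiz, did not overlap between the groups. Nfkbia, the inhibitor that is resynthesised first, ranged from 9.82 to 10.15 in the pools labelled mutant and from 9.85 to 9.99 in the controls (change 0.02, SE 0.11, 95% interval -0.25 to 0.29, limma adjusted p = 0.924). Tnfaip3, the ubiquitin-editing inhibitor also called A20, ranged from 5.78 to 6.16 in the mutant pools and from 6.02 to 6.12 in the controls (change -0.15, SE 0.13). Both have NF-kB matches in the promoters shown above. Nfkbiz, an inducible nuclear member of the family, had 10.45, 10.53 and 10.40 in the mutant pools, against 10.11, 10.25 and 10.36 in the controls, with a narrow separation (change 0.22, SE 0.10, limma adjusted p = 0.224). Tnip1, the partner of Tnfaip3, had 9.63, 9.82 and 9.74 in the mutant pools and 9.65, 9.39 and 9.50 in the controls (change 0.22, SE 0.10), and its second kept probe gave 0.03. Bcl3, a nuclear cofactor of p50 and p52, had 6.64, 6.94 and 6.56 in the mutant pools and 6.39, 6.32 and 6.76 in the controls (change 0.22, SE 0.16). Nfkbib had a change of -0.11 (SE 0.13) and Nfkbie one of 0.08 (SE 0.24).

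Of the NOD and inflammasome genes, 3 of 6 were tested under the listed symbol. Pycard, the adaptor ASC on which inflammasomes are built, had log2 intensities of 6.30, 6.32 and 6.19 in the pools labelled mutant, against 6.52, 6.59 and 6.54 in the controls. The groups did not overlap, and the change was -0.28 (SE 0.08, limma adjusted p = 0.102), or -0.10 without background correction. Casp1, the protease that matures interleukin-1 beta, had 8.40, 8.38 and 8.62 in the mutant pools and 8.39, 8.69 and 8.23 in the controls (change 0.03, SE 0.14). Ripk2, the kinase of the NOD receptors, had 6.55, 6.50 and 6.38 in the mutant pools and 6.68, 6.10 and 6.69 in the controls (change -0.02, SE 0.17). Neither gene had a settled direction.

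A further 4 listed genes stood on the array under older symbols and are outside the counts above. Nod1 (there Card4) differed by 0.08 (SE 0.14, limma adjusted p = 0.756) and Ticam1 (there AW046014), the adaptor of Tlr3, by 0.41 (SE 0.18, limma adjusted p = 0.219). Without background correction the value for Ticam1 was 0.16, and its second probe gave 0.17. Nlrp3 (there Cias1), the best known inflammasome sensor, was above background on no array, and Nod2 (there Card15) on 1.

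Of the 4 inducible effectors 3 were tested, 0 passed, and the groups overlapped in all 3. Tnfaip2, induced by tumour necrosis factor, had log2 intensities of 7.34, 7.95 and 7.93 in the pools labelled mutant, against 7.36, 7.00 and 7.37 in the controls. Mutant pools 2 and 3 stood above the controls and mutant pool 1 among them (change 0.49, SE 0.19, limma adjusted p = 0.176), and the change was 0.28 without background correction. Its other two probes gave 0.76 and 0.41. Vcam1, an adhesion molecule for leukocytes, had 11.01, 10.74 and 10.68 in the mutant pools and 10.72, 10.63 and 10.52 in the controls (change 0.19, SE 0.12). Icam1, another such molecule, had 10.04, 10.38 and 10.14 in the mutant pools and 9.94, 10.05 and 10.07 in the controls (change 0.17, SE 0.11). Ptgs2, the inducible cyclooxygenase, was above background on no array.

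**Figure D3:**
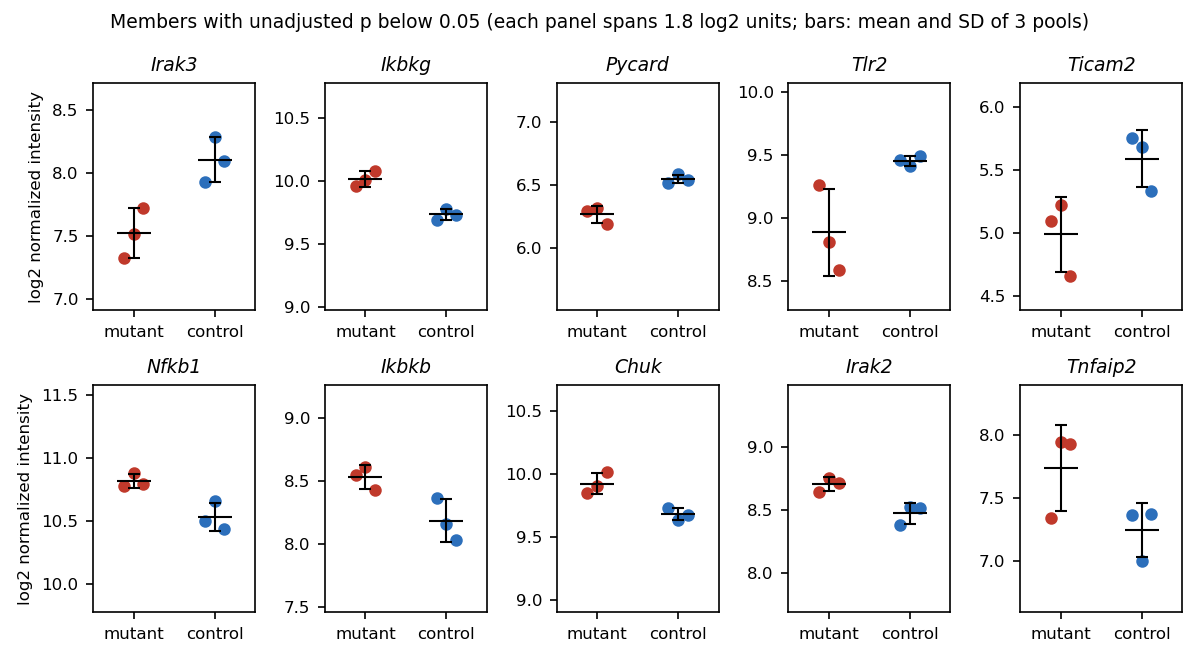
Log2 normalized intensity in each pool for the 10 members with an unadjusted p below 0.05, ordered by p, with the mutant pools left of the controls and the mean and SD of 3 pools in black. All panels span 1.8 log2 units. Groups do not overlap in 9 of the 10, Tnfaip2 being the exception, and 0 of the 10 passed after adjustment over all genes.

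Genes around this path gave the following counts in the same fit. Of 20 common NF-kB target genes, 10 could be tested and 0 passed (limma; 1 at unadjusted p below 0.05), with a median change of 0.14. Their changes ran from -0.70 to 0.35, with 6 above 0 and 4 below. Another 9 of the 20, among them the genes for interleukin-6 and tumour necrosis factor (Il6 and Tnf) and the chemokine gene Cxcl2, were above background on no array. Those with the smallest p were the complement gene Cfb (change -0.27, SE 0.11, limma adjusted p = 0.187) and the survival gene Bcl2l1 (0.18, SE 0.11, limma adjusted p = 0.349). Of 16 tested genes of the tumour necrosis factor receptor arm and NF-kB regulators, 0 passed as higher and 1 as lower. This was Traf1, a signal adaptor that had 5.53, 5.86 and 5.52 in the mutant pools, against 6.27, 6.16 and 6.31 in the controls (log2 change -0.61, SE 0.12, limma adjusted p = 0.0393). It lost its call in each fit without 1 pool (limma adjusted p 0.0601 to 0.111) and without background correction (change -0.18).

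Of 6 tested co-receptor and trafficking genes, 1 passed as higher. Ly86, whose protein MD-1 pairs with the Toll-like receptor homologue Cd180, had 8.83, 8.83 and 9.00 in the mutant pools, against 8.29, 8.37 and 7.90 in the controls. It rose by 0.70 on the log2 scale (SE 0.14, limma adjusted p = 0.0418), but the call was lost in each fit without 1 pool (limma adjusted p 0.0579 to 0.126). Its partner Cd180 was above background on no array.

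The 5 tested cytosolic sensors of nucleic acids held 2 genes that passed as higher. Dhx58 had 8.23, 8.66 and 7.98 in the mutant pools, against 6.71, 7.20 and 6.74 in the controls (log2 change 1.41, SE 0.21, limma adjusted p = 0.0201), and its change was 0.81 without background correction. Ddx58, which encodes the RNA sensor RIG-I, had 7.68, 7.51 and 7.34 in the mutant pools, against 6.86, 6.87 and 6.67 in the controls (0.71, SE 0.12, limma adjusted p = 0.0263), and 0.36 without background correction. Both are known as interferon-induced. Dhx58 lost its call without mutant pool 2 (limma adjusted p = 0.0695) or control pool 3 (0.0672), and Ddx58 without mutant pool 1 (0.0547), mutant pool 2 (0.102), control pool 2 (0.0704) or control pool 3 (0.0811). Their adaptor Mavs was tested and did not pass.

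In the type I interferon list 10 of 13 tested genes passed as higher, against 2.16% of all genes tested. All 13 had a change above 0, with a median of 1.02, where 5538 of all 10831 genes were above 0. This list was chosen with earlier results of these data known. The largest changes among those that passed were in Oasl2, Oas2, Irf7 and Mx2 (2.35, 2.24, 2.06 and 1.71). Irf7, the transcription factor that Myd88 signals through in endosomal Toll-like receptor responses, had 7.27, 7.29 and 7.14 in the mutant pools, against 4.85, 5.26 and 5.40 in the controls, where it was above background on 1 array. Without background correction the change of Irf7 was 0.73 and that of Mx2 was 0.71. Lists were not tested against each other, and the counts are given side by side only.

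**Figure D4:**
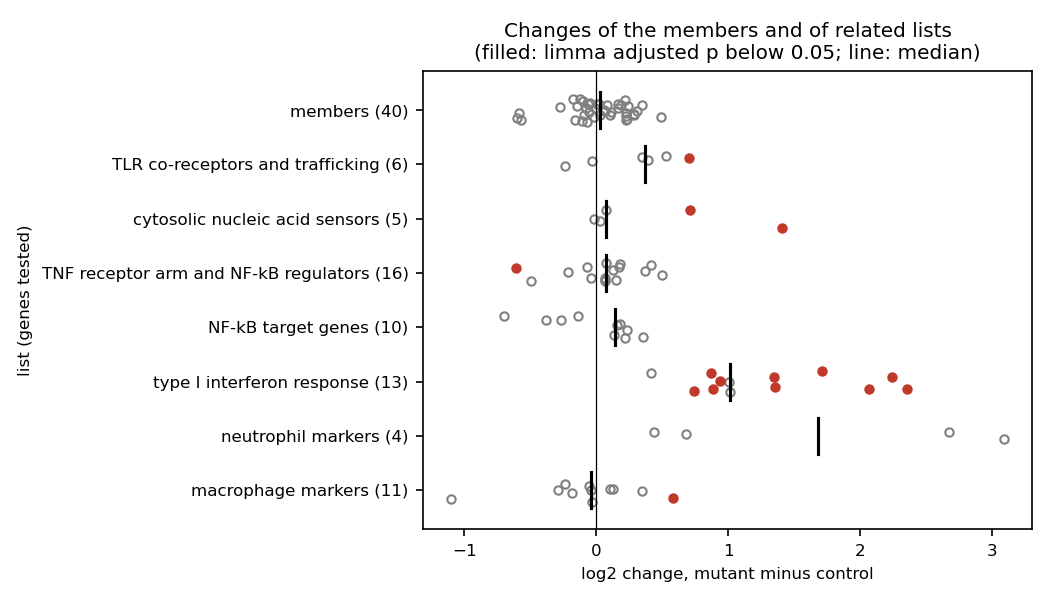
Log2 change, mutant minus control, of each tested gene in the members and in related lists and markers, with genes that passed (limma adjusted p below 0.05) filled and the list median as a line. The members show 0 filled points of 40 around a median of 0.03, and the interferon list 10 of 13 around 1.02.

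The promoter matches can be set beside these values. A window was at hand for 35 of the 45 members, and 11 of them (31.4%) held the NF-kB consensus, where 5.14% of the 27025 genes with a window did. The 9 of these 11 that were tested, Tlr2, Traf3, Map3k7, Nfkb2, Nfkbia, Nfkbie, Bcl3, Tnfaip3 and Tnip1, had a median change of 0.08 and a range of -0.57 to 0.22, and 0 passed. The interferon element was found in 3 members (8.57%), against 3.99% of all genes. These were Tlr6, Myd88 and Ripk1, with changes of -0.05, -0.06 and -0.12. In the interferon list 5 of 8 genes with a window held it, and 4 of these 5 were tested. The whole list had a median change of 1.02, and 10 of its 13 tested genes passed as higher. The 4 with the element had a median of 0.97 and a range of 0.74 to 1.35, and 3 passed as higher. One of them was Isg15, named here for its promoter after its values were seen, with 8.33, 8.63 and 8.53 in the mutant pools and 6.94, 7.71 and 6.78 in the controls (log2 change 1.35, SE 0.24, limma adjusted p = 0.0313). A match is a description of letters in a window, and no match says nothing about the factor.

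The markers of cells that can carry these receptors are given here as sums of intensity. Epithelial markers summed to 42327, 44653 and 47479 in mutant pools 1, 2 and 3, against 38365, 41233 and 36395 in the control pools, with no overlap. Of 6 tested epithelial markers 0 passed (limma; 4 at unadjusted p below 0.05), and 5 (83.3%) did not overlap, against 31.4% of all genes tested. Among these 5, Krt5 was the lower one and Cdh1, Krt8, Foxj1 and Nkx2-1 had the mutant pools above the controls. These sums lie in the same direction as the values of Ikbkg, Ikbkb, Chuk and Nfkb1, and the part of the epithelium in those values was not tested. Summed over the 4 tested neutrophil markers, intensity was 987, 912 and 8692 in mutant pools 1, 2 and 3, against 449, 271 and 322 in the control pools, so that mutant pool 3 stood apart through S100a8 and S100a9. Of the 10 neutrophil markers listed, 9 were on the array, and Cxcr2 was above background on no array and Mpo, Camp and Ngp on 2. Of 4 tested neutrophil markers 0 passed (limma; 3 at unadjusted p below 0.05). Lymphocyte markers Cd3e, Cd3d, Cd4, Cd8a, Cd79a and Ms4a1 were above background on no array. Endothelial markers summed to 6423, 5628 and 5281 in mutant pools 1, 2 and 3, against 6522, 6947 and 5619 in the control pools, with overlap. Of 7 tested endothelial markers 1 passed as higher (limma), and 2 had a change above 0 and 5 below 0. Leaving out mutant pool 3 left 0 of the 40 members called and a median change of 0.05, with 163 genes called in all. The part of these cells in the values of Tlr2 and the other receptors was not tested.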

How the data were processed

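Whole tracheas were measured on Illumina bead arrays. Per the labels' protocols, total RNA was extracted with Trizol, treated with DNase and labelled with biotin. The deposited raw table holds, per the file headers, a mean bead intensity, its standard error, the count of beads and a detection p-value for each probe. The authors' series values, deposited as log2, lie within 0.017 of those computed here. The authors used R 3.2.3 and limma 3.26.9, per the submitters' processing notes.

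Raw intensities were corrected and quantile normalized with neqc in limma 3.58.1 (R 4.3.3, offset 16). A probe was kept where 3 or more arrays had a detection p below 0.05. Symbols were updated through a RefSeq table of GRCm38.p6 (of 18120, 5218 were updated and 866 kept as in the file), and the kept probe with the highest mean stood for each of 10831 genes. Mutant minus control was tested with lmFit and eBayes, two-sided, and p-values were adjusted by Benjamini-Hochberg across all genes. All adjusted p-values are from this limma fit, unless named as the authors'. "At least N-fold" divides the brighter group's mean by the dim group's, in which a probe below the lowest detected signal of its array takes that signal.

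The members and lists were chosen with earlier results of these data known. Values per pool are given for up to 3 members per role with the smallest p. Of a related list, up to 4 passing genes are named, or 2 with the smallest p where none passed. The test was tried on simulated data. Alternatives changed the background correction, offset, normalization, source, filter, probe summary, variance model and block, and left out each pool. The numbers 1 to 3 were not used to pair the pools, as the embryos were drawn at random. After removal of the group means, same-numbered pools had correlations of -0.0093, -0.085 and -0.103. Differently numbered pools had -0.054 to 0.111. With 3 pools a group these values cannot exclude a pairing. The number of arrays limits the precision.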

Additional observations from a re-analysis of the deposited data

How the results depend on the processing

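Across the alternatives 0 members were called higher, and the number called lower was 0 except as follows. Irak3 was called without background correction (1 member, 949 of all genes called) and with an offset of 50 (1 member), and Irak3 and Tlr2 were called with trend and robust variance (2 members, 1082 of all genes). Without 1 pool the number called lower was 0 to 1 (Tlr2, without mutant pool 1), while 84 to 563 genes were called in all. Without a filter on dim probes 391 genes were called, 0 of them among 45 members. With pool number as a replicate block, 122 genes and 0 members were called. The block lost the calls of Ly86 (adjusted p = 0.0974), Traf1 (0.0958) and Ddx58 (0.0573) in limma, and the pools are known to share only a number. The median change of the members was 0.11 with median scaling, where that of all genes was 0.06 and 54.8% of the calls were higher, against 39.1% with quantile normalization. It was -0.01 to 0.06 without 1 pool. Of the values of the 24 named members, 1 of 215 under other settings and 7 of 141 without 1 pool changed sign. These members were picked for the smallest p in each role, which favours a steady sign. Ripk2 was 0.0269 with median scaling, and without 1 pool Ripk2 ran from -0.213 to 0.0832, Relb from -0.0716 to 0.177 and Casp1 from -0.0739 to 0.154. Among the members outside those 24, Tlr6, Tlr7, Irak1, Irak4, Traf6, Map3k8, Nfkb2, Nfkbia and Nfkbie also changed sign without 1 pool. Tlr7 ran from -0.259 to 0.275 and Nfkb2 from -0.451 to 0.306, so the directions of these genes are not settled. The cause of these shifts was not tested. Genes at background on all arrays, such as Tlr3, Rel and Ptgs2, cannot be read at this signal.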
